A study of Homo sapiens with 4 samples.

Results

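The genes described here carry bone morphogenetic protein (BMP) and activin signals and their best-known early targets in fibroblasts. They are the ligand genes INHBA, BMP2 and BMP4, the genes of the secreted antagonists FST and GREM1, the gene of the inhibitory SMAD protein SMAD6, and the 4 ID genes, ID1 to ID4. They were chosen by name and matched to identifiers on the primary chromosomes, and all 10 were found among the 63677 genes counted. All 10 also passed the filter on low counts that left 15398 genes to test. Gene expression was measured by RNA-seq in IMR90, a line of normal human fetal lung fibroblasts, in 2 control libraries and 2 HMGB1 knockdown libraries. Controls received a non-targeting siRNA (NTC) and knockdown cells received siRNAs against HMGB1, both with the transfection reagent RNAiMAX, and both were harvested after 72 h. In each group replicate 1 came from isolate I90-10 and replicate 2 from isolate I90-79, cultured from passage 5 in MEM with fetal bovine serum. Each isolate therefore gave 1 library per group, and a change cannot be told apart from culture-to-culture variation within an isolate. Where values come in pairs, I90-10 stands first and I90-79 second.

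BMPs and activins are secreted dimers of the TGF-beta family. They bind pairs of type I and type II receptor kinases, which phosphorylate SMAD1, SMAD5 and SMAD9 (BMPs) or SMAD2 and SMAD3 (activins), and these move to the nucleus together with SMAD4. The ID genes are direct targets of the BMP branch. Their proteins hold a helix-loop-helix domain but no DNA-binding region, so they pair with E proteins such as TCF3, TCF4 and TCF12 and keep them off DNA. Serum is itself a source of BMP activity in fibroblast culture.

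All members were searched for classical SMAD-type words, and the short stretches of the hg19 genome that held one are shown. The window ran from 2000 bases before to 500 bases after the first base of each gene in the count files. The first word, GGCGNC followed by 5 bases of any kind and GTCT, joins a GC-rich element for BMP SMADs to a SMAD4 element. It was searched on both strands, and so was the second, the palindrome GTCTAGAC. The fixed letters of each word are in capitals.
ID1, chr20:30192174-30192202, plus strand: caggcctGGCGtCtaacgGTCTgagccgc
ID2, chr2:8819065-8819093, plus strand: cgcgcctGGCGcCagagaGTCTgctccgg
ID2, chr2:8817216-8817244, minus strand: cggggctGGCGtCgccttGTCTgcgccgc
SMAD6, chr15:66994555-66994576, plus strand: ccaaagtGTCTAGACtggcata

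The ID1 match began 905 bases before the gene and overlapped no annotated gene. Of the ID2 matches, 1 lay in an ID2 exon, 97 bases after the first base of the gene, and 1 lay 1752 bases before it, within ID2-AS1 but outside its exons. The SMAD6 palindrome began 4 bases before the gene and reached into its first exon. The other 7 members held neither word in this window. They include GREM1 and ID4, described below as lower in both isolates, and BMP2 and BMP4, described as different between the isolates. A link between these words and the changes was not tested. Over the 15398 tested genes, 1.85% held the first word and 1.43% the second, and a match is only a run of letters.

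Between 29861687 and 35317010 reads were counted on genes per library. At this depth, 3 counts equal 0.100 CPM (counts scaled to a library total of 1e6) in the smallest library. HMGB1 itself had 178 and 247 CPM with NTC, against 15.4 and 18.9 CPM with HMGB1 siRNA, and its fitted log2 ratio was −3.59, called at an adjusted p of 0.00751 (SE, the standard error, 0.19). All 9 fibroblast markers checked were expressed, with a summed level of 18653 to 33163 CPM in control and 20672 to 31340 CPM in knockdown libraries. Of 5 immune markers 3 were at 0 counts in every library, and the 5 epithelial markers summed to at most 6.93 CPM. Among the 4 endothelial markers CDH5 was at 0, and their sum of 131 to 156 CPM came almost entirely from TEK.

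Levels between genes were compared as CPM per kilobase of exon. GREM1, a secreted BMP antagonist, had the highest median, 118 CPM per kilobase, with 103 to 207 CPM per kilobase over the 4 libraries, and its range did not overlap that of the next gene. BMP2 exceeded it in 1 library, the I90-79 knockdown, at 109 against 103 CPM per kilobase. FST followed, with a median of 48.1 CPM per kilobase, then ID3 (38.2), BMP2 (34.1), INHBA (25.9), ID1 (22.4), BMP4 (19.6) and ID2 (7.79). From FST down to ID2, the ranges of neighbours in this order overlapped, so their order rests on medians alone. SMAD6, with a median of 0.736 CPM per kilobase, and ID4, with 0.333, lay below all other members without overlap with ID2, while their own ranges overlapped.

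**Figure D1:**
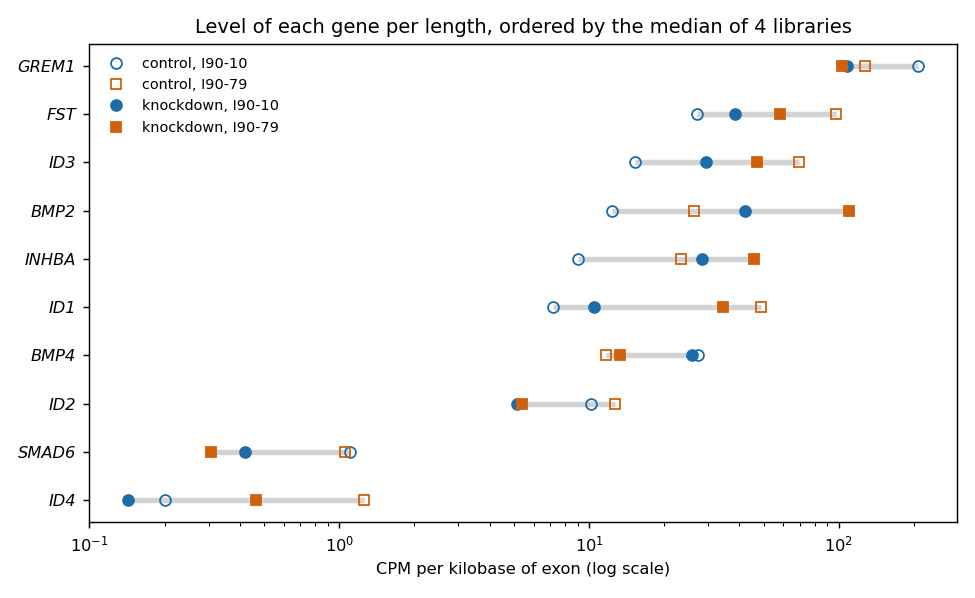
Level of each gene in CPM per kilobase of exon (log axis), 1 point per library and a grey bar from the lowest to the highest of the 4 libraries. GREM1 has the highest median, and SMAD6 and ID4 lie at the bottom, at no more than 1.26 CPM per kilobase.

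Upon HMGB1 knockdown, the ligand transcripts INHBA and BMP2 were higher and GREM1, SMAD6, ID2 and ID4 were lower in both isolates. For ID4 in I90-10 this rests on 14 counts with NTC against 10 with HMGB1 siRNA. Of the 15398 tested genes, 5442 were higher and 6540 were lower in both. ID1, ID3 and FST were higher in one isolate and lower in the other, and so was BMP4, by little. Calls required both an adjusted p below 0.01 and a log2-fold change beyond 0.6 in either direction. Without a term for the isolate, edgeR's quasi-likelihood test called 0 of the 10 members, while it called 0.201% of all tested genes. Of the members, 4 had an unadjusted p below 0.05, beside 28.3% of all tested genes. DESeq2 called 2 members, SMAD6 and ID2, and 10.0% of all tested genes. With the isolate as a replicate block, INHBA and BMP2 rose and SMAD6 and ID2 fell. In that fit 6.68% of all tested genes were called higher and 7.84% lower. The median log2-fold change of the members was −0.29, and −0.05 with the block, beside a median of −0.01 over all tested genes. CPM values of the groups did not overlap for 2 members that were higher and 3 that were lower in knockdown, a pattern that 25.5% and 33.0% of all tested genes showed.

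**Figure D2:**
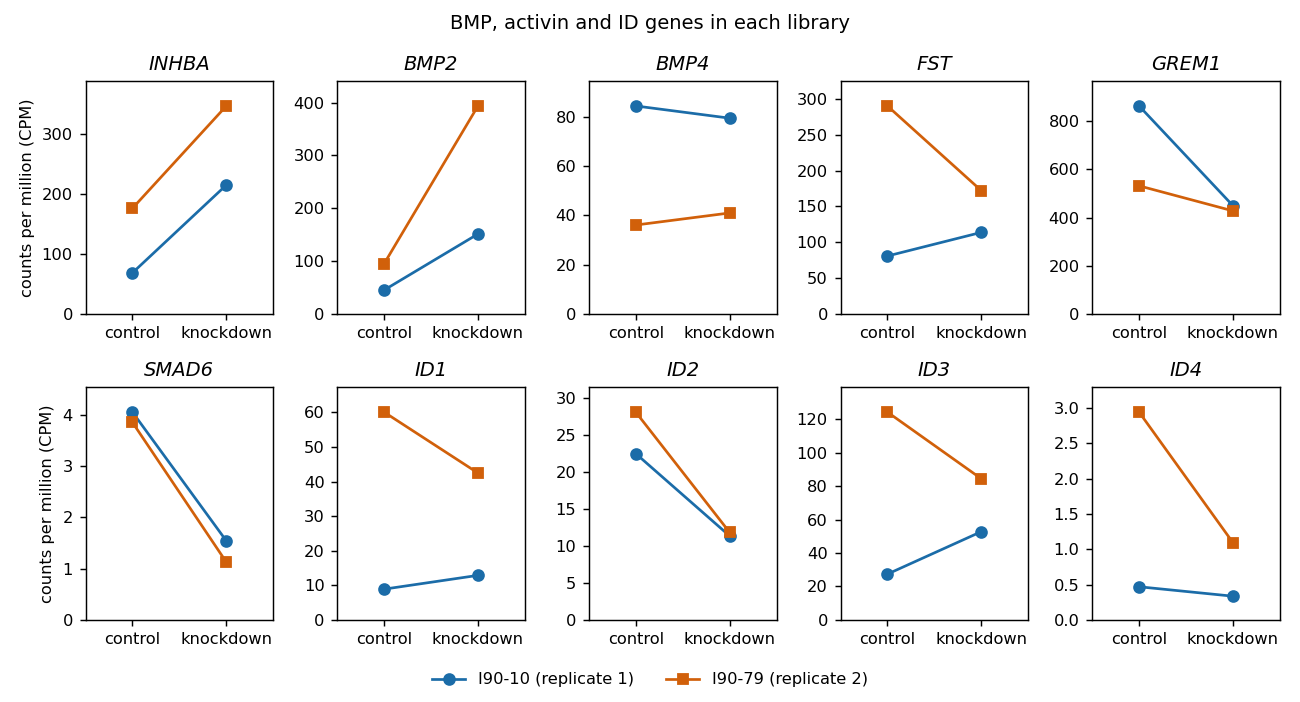
Expression of the 10 genes in CPM (linear axis from 0, 1 panel per gene), with a line joining the control and the knockdown library of each isolate. The lines run the same way in both isolates for INHBA, BMP2, GREM1, SMAD6, ID2 and, on few counts in I90-10, ID4. They run opposite ways for FST, ID1 and ID3 and, with little change, for BMP4.

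INHBA (ENSG00000122641, chromosome 7 of hg19 from 41724712 to 41742706, minus strand) encodes the subunit that forms activin A. It had 67.9 and 175 CPM with NTC, against 214 and 346 CPM with HMGB1 siRNA. Both knockdown libraries lay above both controls, with the smallest gap between the I90-79 control and the I90-10 knockdown. Means were 122 ± 76.1 CPM in control and 280 ± 93.1 CPM in knockdown (SD, n = 2 each). The log2-fold change was 1.25 (SE 0.45, adjusted p = 0.149), and 1.35 with the replicate block (SE 0.15, adjusted p = 0.000457), or 2.56-fold. Within the isolates the increase was 3.15-fold in I90-10 and 1.97-fold in I90-79.

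BMP2 (ENSG00000125845, chromosome 20 from 6748311 to 6760927, plus strand) encodes a BMP that signals through SMAD1 and SMAD5. Its level was 44.7 and 94.7 CPM with NTC, against 151 and 394 CPM with HMGB1 siRNA. Both knockdown libraries lay above both controls. Means were 69.7 ± 35.3 CPM in control and 272 ± 172 CPM in knockdown (SD, n = 2 each). Its log2-fold change of 2.01 (SE 0.53, adjusted p = 0.0807) did not pass without the block. With the replicate block it was 1.95 (SE 0.11, adjusted p = 4.02e-05), or 3.86-fold, and the isolates gave 3.38-fold and 4.16-fold. Without the block, leaving out 1 library moved it between 1.20 (without knockdown replicate 2) and 2.59 (without control replicate 2).

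BMP4 (ENSG00000125378, chromosome 14 from 54416454 to 54425479, minus strand) encodes a close relative of BMP2. Its level was 84.5 and 36.1 CPM with NTC, against 79.6 and 41.0 CPM with HMGB1 siRNA. The I90-10 libraries were high and the I90-79 libraries low in both groups. Its log2-fold change was 0.03 (SE 0.51, adjusted p = 0.975), and 0.08 with the block (SE 0.11, adjusted p = 0.599). The ratio of BMP2 to BMP4 per kilobase was 0.453 and 2.25 with NTC, against 1.62 and 8.22 with HMGB1 siRNA.

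FST (ENSG00000134363, chromosome 5 from 52776239 to 52782964, plus strand) encodes follistatin, which binds activin A tightly and keeps it from its receptors. It had 80.6 and 290 CPM with NTC, against 114 and 172 CPM with HMGB1 siRNA. The control library of I90-79 was the highest and that of I90-10 the lowest, with both knockdown libraries between them. Its log2-fold change was −0.32 (SE 0.56, adjusted p = 0.751), and −0.10 with the block (SE 0.24, adjusted p = 0.790). It was 1.41-fold higher in the knockdown of I90-10 and 1.69-fold lower in that of I90-79.

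GREM1 (ENSG00000166923, chromosome 15 from 33010175 to 33026870, plus strand) encodes gremlin 1, which captures BMP2 and BMP4 outside the cell. It had 864 and 532 CPM with NTC, against 449 and 428 CPM with HMGB1 siRNA. The knockdown libraries were both below the controls and close to each other. Its log2-fold change was −0.64 (SE 0.27, adjusted p = 0.202), and −0.59 with the block (SE 0.15, adjusted p = 0.0199), so it was not called in either fit. Of its exonic bases, 4.51% overlap GREM1-AS1 on the other strand, and the strand setting of the counting is not given in the sources used here.

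The ligand and its antagonist were also set side by side within each library, a comparison chosen after their values were seen. The ratio of INHBA to FST per kilobase was 0.332 and 0.238 with NTC, against 0.743 and 0.793 with HMGB1 siRNA. It was close between the isolates in the knockdown, unlike either gene alone. The ratio of BMP2 to GREM1 per kilobase was 0.0599 and 0.206 with NTC, against 0.389 and 1.07 with HMGB1 siRNA. Both ratios were higher in the knockdown in both isolates. An exact permutation test of 2 against 2 libraries cannot give a two-sided p below 0.333, so no p is given for them.

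SMAD6 (ENSG00000137834, chromosome 15 from 66994566 to 67074338, plus strand) encodes an inhibitory SMAD that is induced by BMPs and blocks the BMP branch from within the cell. It had 4.05 and 3.85 CPM with NTC (121 and 136 counts), against 1.54 and 1.13 CPM with HMGB1 siRNA (46 and 35 counts). Isolates were alike within each group, and the groups did not overlap. Its log2-fold change was −1.52 (SE 0.30, adjusted p = 0.0435), and −1.54 with the block (SE 0.26, adjusted p = 0.00304), or 2.90-fold lower.

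Of the ID genes, ID2 (ENSG00000115738, chromosome 2 from 8818975 to 8824583, plus strand) was the one that fell, with the block. It had 22.5 and 28.1 CPM with NTC, against 11.4 and 11.8 CPM with HMGB1 siRNA. Its spread between isolates was small beside the gap between the groups, with means of 25.3 ± 3.97 CPM and 11.6 ± 0.343 CPM (SD, n = 2 each). The log2-fold change was −1.08 (SE 0.15, adjusted p = 0.0226), and −1.08 with the block (SE 0.13, adjusted p = 0.000625), or 2.11-fold lower. ID2-AS1 overlaps 1.72% of its exonic bases on the other strand.

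ID1 (ENSG00000125968, chromosome 20 from 30193086 to 30194318, plus strand), often taken as the most direct readout of BMP signals, had 8.87 and 60.1 CPM with NTC, against 12.9 and 42.5 CPM with HMGB1 siRNA. Values were low in I90-10 and high in I90-79, and the groups overlapped. The log2-fold change was −0.26 (SE 0.92, adjusted p = 0.879), and −0.01 with the block (SE 0.21, adjusted p = 0.987). In I90-10 the knockdown was 1.45-fold higher and in I90-79 it was 1.42-fold lower.

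ID3 (ENSG00000117318, chromosome 1 from 23884409 to 23886285, minus strand), another helix-loop-helix inhibitor, had 27.4 and 124 CPM with NTC, against 52.8 and 84.5 CPM with HMGB1 siRNA. Both knockdown libraries lay between the controls. Its log2-fold change was −0.09 (SE 0.65, adjusted p = 0.947), and 0.21 with the block (SE 0.29, adjusted p = 0.617). ID4 (ENSG00000172201, chromosome 6 from 19837617 to 19840915, plus strand), the least abundant of the family, had 14 and 104 counts with NTC, against 10 and 34 with HMGB1 siRNA. It was lower in the knockdown in both isolates, by 1.40-fold and 2.69-fold, but the groups overlapped. Its log2-fold change was −1.21 (SE 0.93, adjusted p = 0.445), and −1.09 with the block (SE 0.39, adjusted p = 0.0687).

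Summed per kilobase, the 4 ID genes had 32.8 and 132 with NTC, against 45.1 and 87.3 with HMGB1 siRNA. ID3 held the largest share of this sum in every library, between 46.4% and 65.1%. The share of ID2 was 31.1% and 9.66% with NTC, against 11.4% and 6.15% with HMGB1 siRNA, lower in the knockdown in both isolates. That of ID1 was 21.9% and 23.1% in the I90-10 libraries and 36.9% and 39.4% in those of I90-79, and thus followed the isolate. In a bulk sample, fewer cells with a transcript and less of it per cell cannot be told apart.

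**Figure D3:**
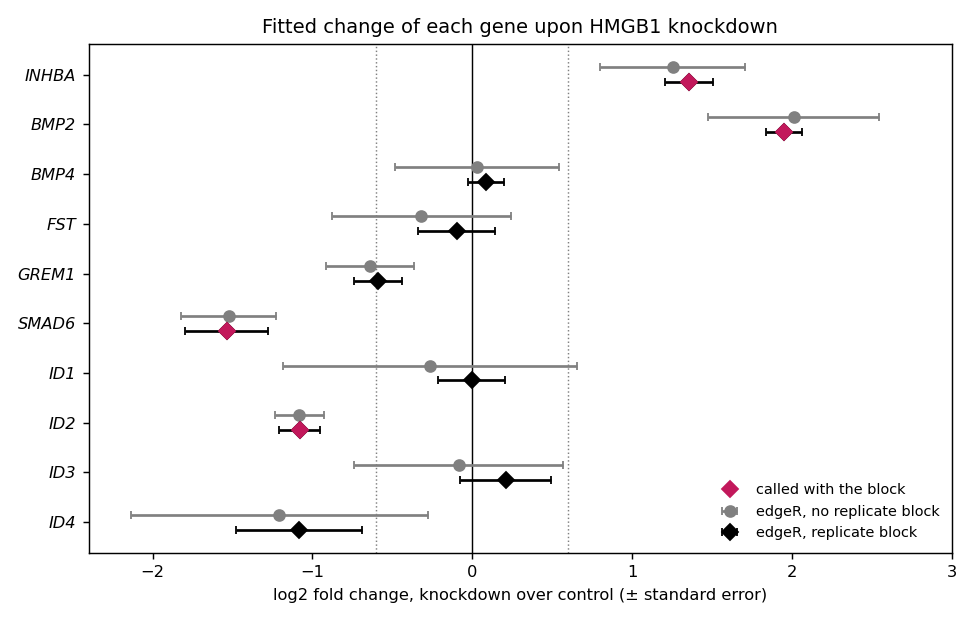
Log2-fold change of knockdown over control with its standard error (SE), from edgeR without (circles) and with (diamonds) the replicate block, with dotted lines at the threshold of 0.6 in either direction. With the block the bars are shorter for every gene, and INHBA, BMP2, SMAD6 and ID2 (coloured) are called with it.

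The members differed between the isolates as well. In the control libraries 7 of the 10 were higher in I90-79 than in I90-10, and in the knockdown libraries the same 7 genes were. ID1 was 6.77-fold higher in I90-79 among the controls, ID4 6.28-fold, ID3 4.54-fold and FST 3.60-fold. In the knockdown libraries these ratios were 3.30, 3.27, 1.60 and 1.51. The difference between the isolates was smaller in the knockdown than in the control for 8 of 10 members, with BMP2 and SMAD6 as the exceptions. The share of all tested genes with either pattern was not counted. The 4 genes named have the largest control ratios, and ratios picked that way tend to be smaller in another pair of libraries. Since each ratio compares 1 library with 1, whether the knockdown narrowed the differences could not be tested.

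The isolates were compared with the isolate term of the fit that holds the group, a comparison added after the values were seen. It called 3 of the 10 members, against 1.67% of all tested genes. ID1 was higher in I90-79, with a log2-fold change of 2.16 (SE 0.21, adjusted p = 0.00249), and so was BMP2, with 1.17 (SE 0.11, adjusted p = 0.00233). BMP4 was lower, with −1.16 (SE 0.11, adjusted p = 0.00238). ID4 (2.17, adjusted p = 0.0207), ID3 (1.35, adjusted p = 0.0330), FST (1.15, adjusted p = 0.0310) and INHBA (0.96, adjusted p = 0.0115) did not pass the threshold of 0.01. For SMAD6 and ID2 the isolate term was −0.30 (adjusted p = 0.552) and 0.13 (adjusted p = 0.614). Isolate, culture and any other property that replicate 1 and replicate 2 do not share cannot be told apart here.

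**Figure D4:**
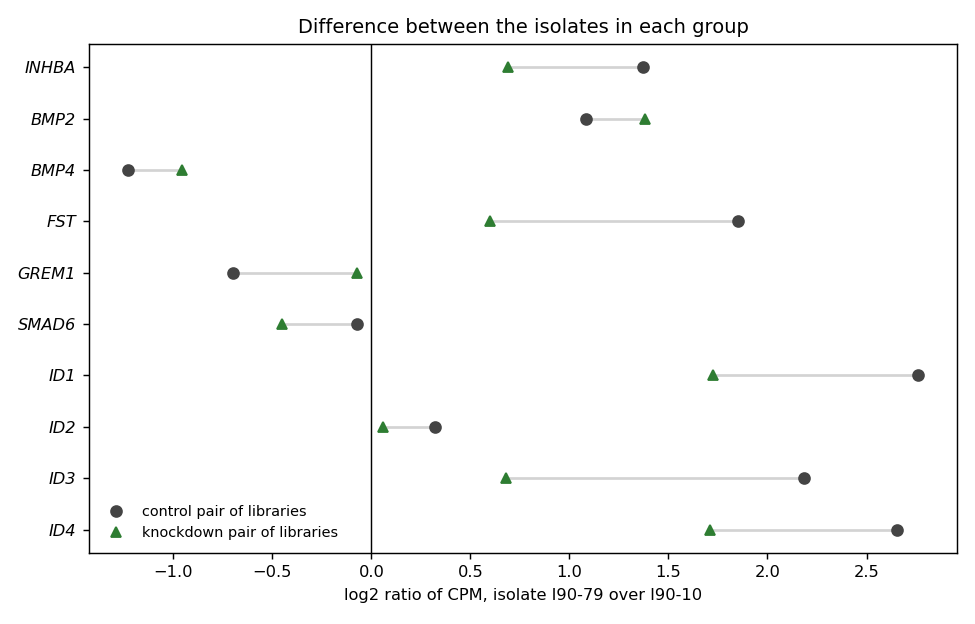
Log2 ratio of CPM in isolate I90-79 over I90-10 for each gene, in the control pair (circles) and in the knockdown pair (triangles) of libraries. ID1, ID3, ID4 and FST have the largest control ratios, and their knockdown ratios lie nearer to 0.

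The knockdown value was above the control in one isolate and below it in the other for 4 members (BMP4, FST, ID1 and ID3), as for 22.2% of all tested genes. For BMP4 both ratios were close to 1. The fibroblast markers differed between the isolates too, with 8 of 9 lower in I90-79 in both groups (PDGFRA was higher). Their summed level was 33163 CPM in the control and 31340 CPM in the knockdown library of I90-10, and 18653 and 20672 CPM in those of I90-79. The part of this difference in the values of the members was not tested.

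The wider pathway was described with a list of 63 further genes, 62 of which had an identifier in the files and 50 of which were tested. Without the block 0 were called by edgeR, 27 had an unadjusted p below 0.05 (28.3% of all tested genes), and DESeq2 called 8 (10.0% of all tested genes). With the block 7 rose and 6 fell, beside 6.68% and 7.84% of all tested genes. The same shares apply to the counts by role given below. The median log2-fold change of the 50 was −0.04 without the block. Among ligands, GDF15, a stress-induced distant member of the family, went from 159 and 398 CPM with NTC to 717 and 1096 CPM with HMGB1 siRNA, a log2-fold change of 1.86 with the block (SE 0.16, adjusted p = 0.000152). BMP5 was the other of 8 tested ligands that rose, at 1.29 (adjusted p = 0.00123). No tested ligand fell by the thresholds used.

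Among the 11 receptor and co-receptor genes tested, 2 fell and none rose in the fit with the block. RGMB, a BMP co-receptor, had 305 and 301 CPM with NTC, against 119 and 119 CPM with HMGB1 siRNA, at −1.31 (SE 0.09, adjusted p = 7.43e-05), and RGMB-AS1 overlaps 5.44% of its exonic bases. ACVR2B, a type II receptor for activins, was at −1.23 (adjusted p = 0.000765). Of the 12 tested antagonists, 3 fell with the block and 1, not reported here, rose. FSTL1, a follistatin-like glycoprotein, had 1686 and 1198 CPM with NTC, against 526 and 372 CPM with HMGB1 siRNA, at −1.65 (adjusted p = 4.31e-05). CRIM1, a membrane protein that holds back BMP secretion, was at −1.08 (adjusted p = 0.00169), and FSTL3, which binds activins as follistatin does, at −0.87 (adjusted p = 0.000726).

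Of the 11 intracellular transducers and inhibitors tested, SMAD7 rose and SMURF2 fell in the fit with the block. SMAD7, the inhibitory SMAD that acts on both branches, had 7.97 and 18.1 CPM with NTC, against 18.2 and 28.7 CPM with HMGB1 siRNA, at 0.95 (SE 0.15, adjusted p = 0.00238). In this fit SMAD6 and SMAD7 thus went opposite ways. SMURF2, a ubiquitin ligase that works with SMAD7 on receptors, was at −1.33 (adjusted p = 0.000362). The E proteins TCF3, TCF4 and TCF12 were not called, with log2-fold changes of −0.08, 0.37 and −0.42 with the block (adjusted p = 0.576, 0.0215 and 0.0143).

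Transcription factor genes known as BMP targets included 3 that rose with the block out of 5 tested. MSX2 went from 7.93 and 17.4 CPM with NTC to 30.3 and 35.5 CPM with HMGB1 siRNA, at 1.50 (SE 0.19, adjusted p = 0.000949). RUNX2, a master factor of bone formation, had 7.37 and 6.48 CPM with NTC, against 16.3 and 17.6 CPM with HMGB1 siRNA, at 1.33 (SE 0.15, adjusted p = 0.000539). HEY1 was at 1.11 (adjusted p = 0.00351), with groups that overlapped. ID2 and SMAD6, also known BMP targets, fell in the same fit.

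**Figure D5:**
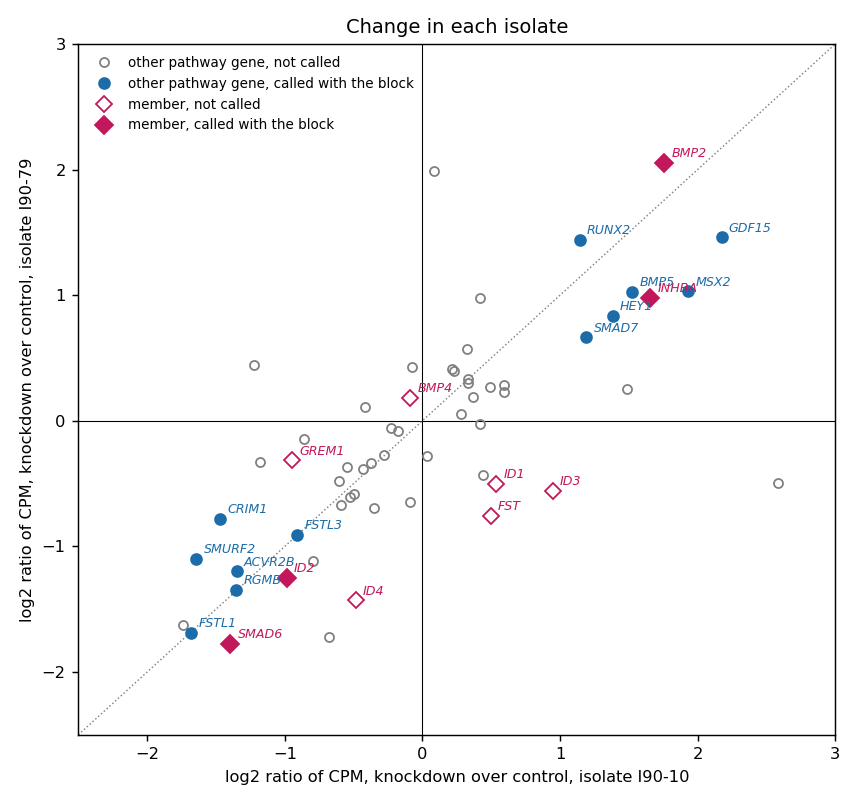
Log2 ratio of CPM, knockdown over control, in I90-10 (horizontal axis) against I90-79 (vertical axis) for the 10 members (diamonds) and 49 other pathway genes (circles), filled where called with the replicate block, with equal change on the dotted line. Filled points lie in the quadrants where both isolates agree in sign, and ID1, ID3 and FST lie at the lower right.

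The 3′ untranslated regions were searched for the hexamer GCAGTT, a word picked earlier from these same data, because transfected siRNAs can also lower transcripts that match their seed. Of tested genes with a 3′ untranslated region of at least 100 bases, 36.2% held it, against 71.0% of genes called lower and 30.3% of genes called higher with the block. Since the word was picked from these same data, these shares are not an independent test of it. The median length of these regions was 1418, 1991 and 1698 bases. ID2 held 1 copy and SMAD6 held 0. Of the 6 pathway genes that fell, ACVR2B held 4, CRIM1 3, RGMB 1 and SMURF2 1, and FSTL1 and FSTL3 held 0. Of the pathway genes named as higher, HEY1 held 2, and GDF15, BMP5, SMAD7, MSX2 and RUNX2 held 0. Among the members that were not called lower, ID4 held 4, INHBA, FST and GREM1 1 each, and BMP2, BMP4, ID1 and ID3 held 0. Numbers of copies are not comparable between genes, since these regions ran from 299 bases (BMP4) to 13864 bases (GREM1) among the members. For GREM1 and ID4 (3005 bases) the region exceeded the 4168 and 2344 exonic bases counted, so a copy can lie outside the counted gene. The siRNA sequences were not used here, and the part of such matches in the changes was not tested.

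Profiles like those of a ligand and of a target were sought by the distance between centred log2 CPM values over the 4 libraries. For this distance the CPM used the library factors of the fit and a small added count, so they differ from the CPM printed. The genes nearest to INHBA were TCHH (distance 0.0837), TNIP3 (0.120) and ADORA2B (0.159). Those nearest to ID1 were MIR3142HG (0.357), WNT16 (0.545) and CD69 (0.574). ADORA2B had 15.7 and 43.0 CPM with NTC, against 46.9 and 87.5 CPM with HMGB1 siRNA, and the other 5 were below 5 CPM in all 4 libraries. TCHH had 0.0670 and 0.283 CPM with NTC, against 0.335 and 0.579 CPM with HMGB1 siRNA. Its likeness therefore rests on very few reads and depends on the added count. With 4 libraries and 15398 genes, likeness of this kind is a description only.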

How the data were processed

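Libraries were made from poly(A) RNA with a TruSeq kit and read from both ends. The authors aligned the reads with STAR (hg19) and deposited raw counts per gene of uniquely mapped reads, made with featureCounts. Versions of these tools, the strand setting and the counting of pairs are not given in the sources used here. Symbols were matched from the reference tables for 55665 of 63677 genes. CPM scales each count by the library total (29861687 to 35317010). CPM per kilobase divides it further by the exonic length in the files. edgeR 4.0.16 (R 4.3.3, with limma 3.58.1) tested the counts (filterByExpr, TMM factors of 0.968 to 1.04, quasi-likelihood test, Benjamini-Hochberg adjustment over 15398 genes), at the study's thresholds and without a term for the isolate. Both groups hold both isolates, so the replicate numbers pair the libraries: over 15398 genes, the isolate difference among controls correlated with the one among knockdowns at 0.464 (Pearson), with genes not being independent. The fit with this replicate block is therefore given beside the results. It leaves 1 residual degree of freedom. Each SE given for edgeR is the absolute log2-fold change divided by the square root of the quasi-likelihood F statistic.

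Alternatives were DESeq2 1.42.0, RUVs with 1 factor (written out from its published description) followed by DESeq2 as the study did, other factors, filters and thresholds, and leaving out each library. The scripts were also run on simulated counts, which held a knockdown change for some genes but no difference between isolates. That run therefore cannot compare the fits with and without the block for data such as these. Sequences were read from GRCh37, the files' build, and 3′ untranslated regions from canonical GENCODE transcripts lifted to it. The members, lists and tests were chosen with earlier results of these data known. Named pathway genes are all those called with or without the block whose mean reached 1 CPM, except 1 that is not reported here and not plotted, plus the 3 profiles nearest to INHBA and to ID1. GDF10 and the marker PECAM1 were not matched to an identifier.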

Additional observations from a re-analysis of the deposited data

Results flagged for a closer look

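The knockdown value lay above the control in one isolate and below it in the other for 4 members. These differences were not tested, since each isolate has 1 library per group. ID3 had a log2 ratio of knockdown over control of 0.95 in I90-10 and −0.56 in I90-79. The ratios of FST were 0.50 and −0.76, and those of ID1 were 0.54 and −0.50. The ratios of BMP4 were −0.087 and 0.18. Groups of 2 libraries are too small for a search for outlying samples.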

How the results depend on the processing

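Without the replicate block, edgeR called 0 of the 10 members, 0 of the 50 other pathway genes and 31 of all tested genes. The replicate block gave 4, 13 and 2235 in edgeR and 4, 13 and 2058 in DESeq2. In both, the 4 members were INHBA, BMP2, SMAD6 and ID2. In edgeR, the 13 are the pathway genes named as called in the report and 1 that is not reported here. DESeq2 without the block gave 2, 8 and 1546, RUVs with DESeq2 gave 3 (INHBA and BMP2 higher, ID2 lower), 14 and 1810, and an adjusted p below 0.05 gave 2, 5 and 1243. Without a filter on low counts the numbers were 5, 15 and 2393, and GREM1 was among the 5 (adjusted p = 0.00197). Library size alone gave 0, 1 and 129, and bias-adjusted deviances in edgeR 0, 1 and 98. Other factors, a minimum of 10 counts and no threshold on the fold called 0 members. The cause of these differences between settings was not tested.

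Leaving out each library in turn gave 0 to 1 members, 0 to 6 pathway genes and 0 to 642 of all genes. The lone library of a group is then assumed to vary like the pair of the other group. The 1 member was INHBA, without control replicate 2 (2.03, adjusted p = 0.00588), and without that library the counts were 6 and 642. Without control replicate 1 they were 2 and 299, and without either knockdown replicate 0 and 0. The median log2-fold change of the members ran from −0.87 without control replicate 1 to 0.71 without control replicate 2. The members with a change of sign were BMP4 (−0.56 to 0.83, and 0 with library size alone), FST (−0.95 to 0.82), ID1 (−1.32 to 1.62), ID3 (−0.78 to 1.32) and ID4 (−2.25 to 0.60). With the replicate block ID3 was at 0.21 in edgeR and at 0.24 in DESeq2, and ID1 at 0.036 in DESeq2. INHBA, BMP2, GREM1, SMAD6 and ID2 kept their direction in all of these settings, and leaving out 1 library gave them 0.75 to 2.03, 1.20 to 2.59, −0.98 to −0.20, −1.80 to −1.29 and −1.20 to −0.96. The comparison of the isolates called 3 members, 7 without the filter, 7 at an adjusted p below 0.05 and 4 in DESeq2. The block leaves no residual degree of freedom once a library is left out, so that fit was not run, nor was the interaction of isolate and knockdown. SMAD6 and ID4 rest on the fewest counts among the members, 10 to 136 per library.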
